A study of Homo sapiens with 4 samples.

Results

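The plasminogen system and the matrix metalloproteinase inhibitors were described here through 9 genes, PLAU, PLAUR, PLAT, SERPINE2, SERPINB2, TIMP1, TIMP2, TIMP3 and MMP14, out of 30907 genes on the array. The members were all probes whose deposited gene symbol was one of these names, which gave 14 probes. The RNA of 4 samples was hybridised to Illumina bead arrays, 1 array for each combination of a human lung cancer cell line and a treatment. The lines were A549, a lung adenocarcinoma line, and H1299, a non-small cell lung cancer line from a lymph node metastasis. In each line, cells given siRNA against TET1 (knockdown) were set against the parent line given vehicle (control), and the labels name no non-targeting siRNA. TET1 is an enzyme that converts methylated cytosine to its hydroxymethyl form.

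Plasminogen is a circulating zymogen that urokinase (PLAU) and tissue plasminogen activator (PLAT) cleave into plasmin, a broad protease that degrades fibrin and matrix proteins and activates other proteases. Urokinase acts at the cell surface when bound to its receptor PLAUR, and serpins such as SERPINE2 and SERPINB2 inhibit the activators. Matrix metalloproteinases such as the membrane-anchored MMP14 degrade collagens and are held in check by the tissue inhibitors TIMP1, TIMP2 and TIMP3, and the balance of both systems is studied in tumour invasion.

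Each group was a single array, so the difference of knockdown and control within a line carries no measured error and no test. The 4 arrays carry 1 chip identifier in the labels, and array and group cannot be told apart. Detection meant a deposited detection p-value under 0.01, met by 29.5% of 47321 probes for A549 control, 36.2% for A549 knockdown, 35.7% for H1299 control and 30.5% for H1299 knockdown. The knockdown changes of the lines opposed each other over the whole array. Over 9687 genes detected on all 4 arrays they had opposite signs for 79.5%, with a Pearson r of -0.74 across genes that share the same 4 arrays. The share of probes detected moved with this opposition, being lower in the A549 control and the H1299 knockdown than in the other 2 arrays. The part of either in the members' changes was not tested, and within a line array and knockdown cannot be told apart in any change given here. TET1 itself, on probe ILMN_3247163, read 222.1 for A549 control, 164.5 for A549 knockdown, 255.9 for H1299 control and 186.8 for H1299 knockdown, and passed detection in the controls alone. The other TET1 probe passed detection in 1 array, H1299 control, at a raw signal of 182. Of the epithelial markers, CDH1, EPCAM and KRT19 were detected on both A549 arrays and on no H1299 array, KRT8 was detected on all 4, and KRT18 on none. The A549 markers AKR1B10, AKR1C3 and ALDH1A1, enzymes of aldehyde and ketone metabolism, were lower in H1299 by log2 differences of -7.16, -7.05 and -6.40. Of the mesenchymal markers VIM and CDH2 were detected on all 4 arrays, ZEB1 only in the H1299 control and FN1 on none. The fibroblast genes COL1A2 and PDGFRB, the leukocyte genes PTPRC and CD3E and the endothelial genes PECAM1 and CDH5 were below detection on all 4 arrays. COL1A1 and COL3A1 were detected on at least 1 A549 array and on no H1299 array, and CD14 was detected on all 4.

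Of the 9 genes, 5 were detected on all 4 arrays (PLAU, PLAUR, SERPINE2, TIMP1 and TIMP2), PLAT on 2, and SERPINB2, TIMP3 and MMP14 on none. Of the 14 probes, 6 were detected on all arrays, 3 on some and 5 on none. The plot of raw signal shows this split.

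**Figure D1:**
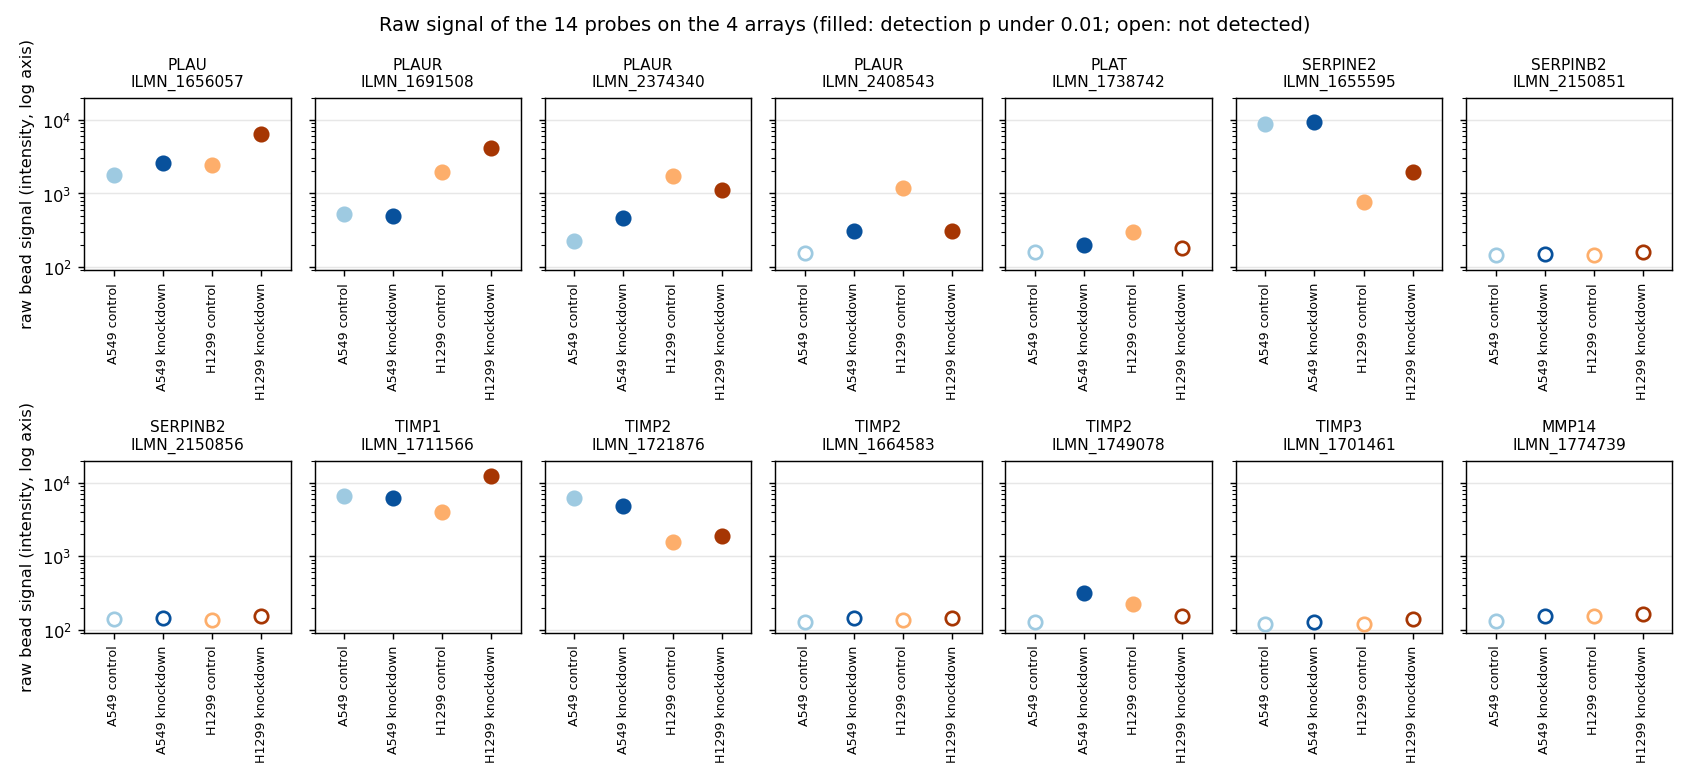
Raw bead signal (intensity, log axis) of each of the 14 probes on the 4 arrays, 1 point an array, filled where the probe was detected and open where it was not. The probes of SERPINB2, TIMP3 and MMP14 stay between 118.1 and 162.7 with the undetected TIMP2 probe, while SERPINE2, TIMP1 and TIMP2 reach 8776.3, 6630.7 and 6143.6 in the A549 control.

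The promoter sequences are shown because TET1 acts on methylated cytosine in CpG dinucleotides, and because the set holds genes read as present and genes below detection. RefSeq windows of 250 bases before an annotated start in GRCh38.p14 were found for 7 of the 9 genes, and CpG dinucleotides are in capitals, as is a transcription factor motif described after the first 5. The median of 35116 such human windows was 11 CpG. The 3 genes that were at least 2-fold higher in the H1299 knockdown (PLAU, SERPINE2 and TIMP1) had 24, 28 and 12 CpG in the windows printed. Other annotated starts of PLAU and SERPINE2 had 4 and 6. Among the genes below detection, TIMP3 had 26 CpG, MMP14 had 7 in a window not printed, and SERPINB2 had 0. PLAT and TIMP2 had no window, and a relation of CpG count to detection was not tested. No methylation was measured on these arrays.
PLAU chr10:73910882-73911131 plus strand: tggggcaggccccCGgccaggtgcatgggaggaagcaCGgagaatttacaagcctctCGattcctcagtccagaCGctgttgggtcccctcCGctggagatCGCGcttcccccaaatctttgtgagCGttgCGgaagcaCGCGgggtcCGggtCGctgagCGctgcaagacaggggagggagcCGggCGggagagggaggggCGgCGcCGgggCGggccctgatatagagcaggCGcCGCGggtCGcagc
SERPINE2 chr2:224038641-224038890 minus strand: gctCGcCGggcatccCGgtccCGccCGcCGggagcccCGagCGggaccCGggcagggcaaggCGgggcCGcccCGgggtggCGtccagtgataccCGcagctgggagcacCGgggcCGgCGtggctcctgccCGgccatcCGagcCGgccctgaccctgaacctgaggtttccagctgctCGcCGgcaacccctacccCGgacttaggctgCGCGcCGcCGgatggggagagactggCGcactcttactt
TIMP1 chrX:47582186-47582435 plus strand: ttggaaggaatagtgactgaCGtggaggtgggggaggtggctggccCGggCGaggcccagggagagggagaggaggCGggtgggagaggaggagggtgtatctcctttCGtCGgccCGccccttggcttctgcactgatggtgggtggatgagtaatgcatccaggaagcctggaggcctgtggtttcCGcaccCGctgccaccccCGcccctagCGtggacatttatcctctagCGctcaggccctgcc
TIMP3 chr22:32801455-32801704 plus strand: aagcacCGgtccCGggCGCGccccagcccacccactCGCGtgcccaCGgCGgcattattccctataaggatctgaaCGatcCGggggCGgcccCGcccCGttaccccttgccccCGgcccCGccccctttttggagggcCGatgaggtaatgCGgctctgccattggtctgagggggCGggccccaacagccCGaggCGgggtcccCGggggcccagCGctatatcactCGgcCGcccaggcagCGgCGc
SERPINB2 chr18:63887455-63887704 plus strand: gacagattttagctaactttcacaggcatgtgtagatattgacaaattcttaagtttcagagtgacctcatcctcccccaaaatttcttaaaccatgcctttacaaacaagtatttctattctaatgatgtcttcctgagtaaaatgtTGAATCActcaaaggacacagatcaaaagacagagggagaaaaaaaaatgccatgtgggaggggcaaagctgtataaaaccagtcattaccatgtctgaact

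The AP-1 core motif TGANTCA, searched on both strands (it reads the same on either), was present in 6.57% of all windows. AP-1 is a transcription factor of FOS and JUN proteins. Among the members the motif was found once in SERPINB2, the capital run of 7 bases above starting 102 bases before the start, and once in PLAUR, 186 bases before the start, and in no other window. In the PLAUR window below it is again the run of 7 capitals, among 13 CpG.
PLAUR chr19:43670170-43670419 minus strand: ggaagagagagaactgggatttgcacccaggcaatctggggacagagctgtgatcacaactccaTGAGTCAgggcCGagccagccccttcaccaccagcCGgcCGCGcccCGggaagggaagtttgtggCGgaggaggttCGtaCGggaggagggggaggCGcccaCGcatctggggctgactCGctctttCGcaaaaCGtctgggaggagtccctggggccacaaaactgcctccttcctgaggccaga

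PLAU encodes urokinase, the main activator of plasminogen at the cell surface. Its raw signal on probe ILMN_1656057 was 1799.2 for A549 control, 2562.7 for A549 knockdown, 2413.6 for H1299 control and 6430 for H1299 knockdown. The H1299 knockdown was the highest of the 4 and the A549 control the lowest. After background correction and quantile normalization, which here and below give all log2 values, PLAU was 2.3-fold higher in the knockdown than in the control of H1299 (log2 change 1.20). In A549 it was 1.07-fold higher (log2 change 0.10), and this small change turned to -0.14 when arrays were centred on their detected probes.

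PLAT encodes tissue plasminogen activator. Its only probe, ILMN_1738742, had a raw signal of 161.5 for A549 control, 197.5 for A549 knockdown, 301.3 for H1299 control and 183.8 for H1299 knockdown. It was detected in the A549 knockdown and the H1299 control alone, so both activators were read in both lines but PLAT lay near background. In H1299 the knockdown was at least 2.35-fold lower than the control after normalization (log2 bound -1.23), a bound against the lowest detected value on that array. The bound holds for that processing alone. As read, the log2 change was -0.58 without background correction and -0.23 on the authors' deposited values. No fold can be given in A549.

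PLAUR encodes the urokinase receptor, a membrane-anchored protein that concentrates urokinase on cells. It was the only member with 3 detected probes, and they agreed on the lines but not on the knockdown. Probe ILMN_1691508 had a raw signal of 527.9 for A549 control, 490.6 for A549 knockdown, 1975.1 for H1299 control and 4130.6 for H1299 knockdown. Probe ILMN_2374340 read 223.4, 466.7, 1739.8 and 1115.5 in the same order. Probe ILMN_2408543 read 153.2, 310.9, 1168.9 and 310.9. The first probe was lower in the A549 knockdown and higher in the H1299 knockdown, and the other 2 were the reverse. The log2 changes in A549 were -0.95 on ILMN_1691508, 0.87 on ILMN_2374340 and at least 1.02 on ILMN_2408543, which was undetected in the control. That bound depends on the processing, and on the authors' deposited values the change of ILMN_2408543 in A549 was 0.26. The fall of ILMN_1691508 in A549 also depends on it, at -0.53 on the deposited values and -0.27 with arrays centred on their medians. In H1299 the log2 changes of the probes, in the same order, were 0.86, -0.84 and -2.40. A knockdown direction for PLAUR therefore depends on the probe read, and which transcripts each probe matches was not analysed here.

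SERPINE2, also called protease nexin 1, is a serpin that inhibits urokinase, plasmin and thrombin. On probe ILMN_1655595 the raw signal was 8776.3 for A549 control, 9372.5 for A549 knockdown, 763.6 for H1299 control and 1961.6 for H1299 knockdown. Both A549 arrays lay well above both H1299 arrays. SERPINE2 was 2.67-fold higher in the knockdown than in the control of H1299 (log2 change 1.42) and, though its raw signal was higher there, 1.13-fold lower in the A549 knockdown after normalization (log2 change -0.18). SERPINB2, plasminogen activator inhibitor 2, was below detection on both of its probes on all arrays. Its raw signal on ILMN_2150851 was 143.1, 151, 147.3 and 161.9 in the A549 control, A549 knockdown, H1299 control and H1299 knockdown, with detection p-values between 0.126 and 0.303.

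TIMP1 is a secreted inhibitor of most matrix metalloproteinases. On probe ILMN_1711566 the raw signal was 6630.7 for A549 control, 6253.5 for A549 knockdown, 4038 for H1299 control and 12191.3 for H1299 knockdown. The A549 arrays read alike and lay between the H1299 arrays. TIMP1 was 2.6-fold higher in the knockdown than in the control of H1299 (log2 change 1.38) and 1.31-fold lower in the A549 knockdown (log2 change -0.39).

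TIMP2 inhibits metalloproteinases and also takes part in the activation of pro-MMP2 by MMP14. Its bright probe, ILMN_1721876, read 6143.6 for A549 control, 4775.4 for A549 knockdown, 1547.5 for H1299 control and 1905.2 for H1299 knockdown. Both A549 arrays were above both H1299 arrays. On this probe TIMP2 was 1.62-fold lower in the A549 knockdown (log2 change -0.69) and 1.11-fold higher in the H1299 knockdown (log2 change 0.15). The dimmer TIMP2 probe ILMN_1749078 read 126.2, 319.2, 226.4 and 153.4 in the same order of arrays and was detected in the A549 knockdown and the H1299 control alone. On it the A549 knockdown was at least 2.13-fold higher and the H1299 knockdown at least 1.37-fold lower, opposite in sign to the bright probe in both lines. These bounds, 1.09 and -0.45 on the log2 scale, depend on the processing. On the authors' deposited values the changes of this probe were smaller, 0.38 and -0.16. The remaining TIMP2 probe, ILMN_1664583, was undetected on all arrays.

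TIMP3 binds extracellular matrix and inhibits ADAM17 as well as metalloproteinases, and TIMP2 and TIMP3 have been reported as TET1 targets in other cancers. The TIMP3 probe ILMN_1701461 read 119.7 for A549 control, 127.5 for A549 knockdown, 118.1 for H1299 control and 141.2 for H1299 knockdown, with detection p-values between 0.643 and 0.973. No change of TIMP3 was detectable at this signal in either line. MMP14 was also below detection, at 132.1, 155.5, 153.6 and 162.7 in the same order on ILMN_1774739. No fold is given for either.

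Within A549, 0 of the 6 detected members differed at least 2-fold by the brightest probe of each, where 19.9% of 13228 genes did (11.1% higher and 8.8% lower). These counts, of members and of all genes or probes, take undetected values as read where the other array passed detection. Counted by probe, 2 of 9 were at least 2-fold higher and 0 lower, where 22% of 17579 probes passed (13.6% higher and 8.34% lower). The median change of the 6 genes was -0.29 on the log2 scale, against -0.13 over all genes. In H1299, 3 of the 6 were at least 2-fold higher (PLAU, SERPINE2 and TIMP1), where 18.6% of 13208 genes were, and 1 was at least 2-fold lower (PLAT), where 14.8% were, 33.4% in all. Counted by probe, 3 of 9 were higher and 3 lower with undetected values as read, where 36% of 17747 probes passed (16.7% higher and 19.3% lower). Of the 3 lower, the dim TIMP2 probe was past 2-fold only as read, since its bound was 1.37-fold. The members' median in H1299 was 1.03, against 0.28 over all genes. Relative to the all-gene median of H1299 the changes were 0.92 for PLAU, 1.14 for SERPINE2 and 1.09 for TIMP1, so that PLAU alone of the 3 fell short of 2-fold on that basis. With arrays centred on their medians the all-gene medians were 0.35 in A549 and 0.39 in H1299, and the relative changes in H1299 were 1.21, 1.27 and 1.38. In H1299 the split of all called genes was 2457 higher and 1950 lower, and 752 and 1037 without background correction, 416 and 691 on the authors' deposited values, and 1793 and 2317 with arrays centred on detected probes. In A549 it was 1464 higher and 1164 lower, 2839 and 168 with arrays centred on their medians, 604 and 207 without background correction and 399 and 116 on the deposited values.

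Of 9 member probes detected on any array, 8 differed in opposite directions in the 2 lines, undetected values taken as read. Of these, 4 were lower in A549 and higher in H1299 (PLAUR ILMN_1691508, SERPINE2, TIMP1 and the bright TIMP2 probe), and 4 were the reverse (PLAUR ILMN_2374340 and ILMN_2408543, PLAT and the dim TIMP2 probe). Opposite directions held for 79.7% of the 11894 probes detected on all 4 arrays. Among the members' genes detected on all 4 arrays they held for 4 of 5, against 79.5% of all such genes. PLAU was the exception, with a change of 0.10 in A549 and 1.20 in H1299, and it joined the others with arrays centred on detected probes (-0.14 in A549).

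**Figure D2:**
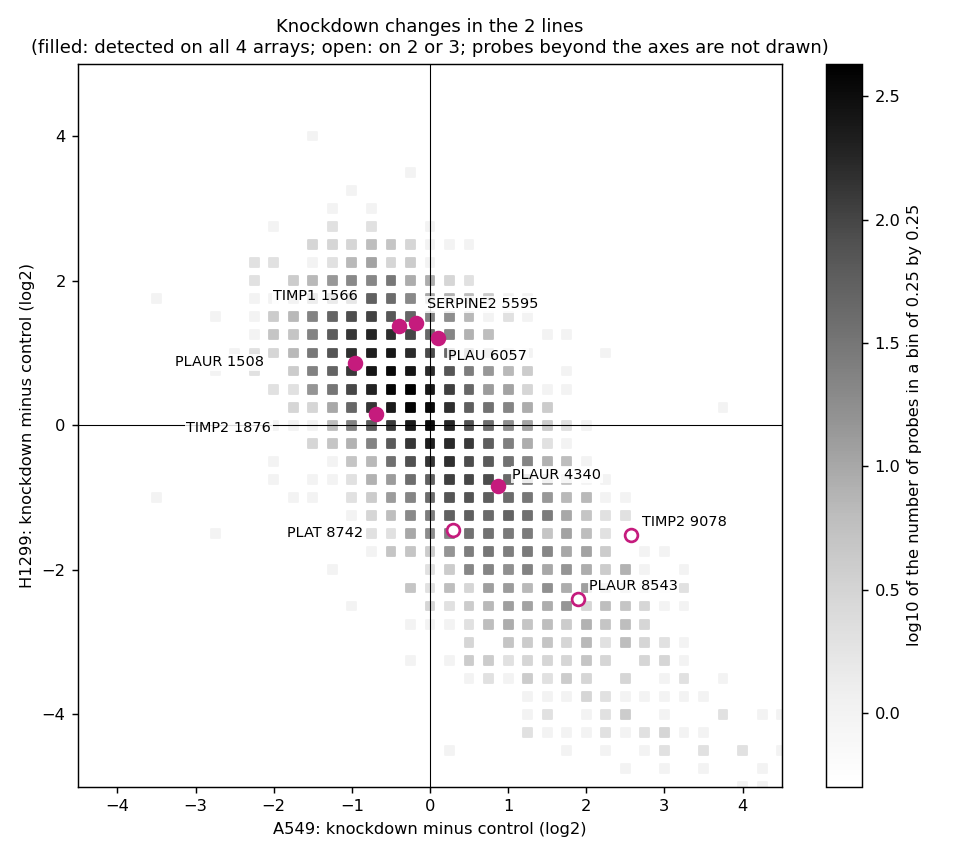
Knockdown minus control in A549 (x axis, log2) and in H1299 (y axis, log2), with grey squares for bins of 11894 probes detected on all 4 arrays and pink points for the 9 detected member probes, open where only 2 or 3 arrays passed detection, named by gene and the last digits of the probe. Most grey bins lie from upper left to lower right, and the member probes lie along the same band, with PLAUR probes on both sides. The dim TIMP2 probe lies at the lower right, and the bright one nearer the centre, at -0.69 in A549 and 0.15 in H1299.

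Averaged over both lines, the knockdown changed no member past the threshold. The limma fit took line as a block and had 1 residual degree of freedom, and with an infinite prior, each gene's error was set by the spread of genes of like intensity. It called 1 of 12965 genes (0.00771%) at an adjusted p of 0.05, and 21 had an unadjusted p under 0.05, none of them a member. Over the 6 members tested the unadjusted p lay between 0.29 and 0.953. PLAU had the largest mean change of the 6, 0.65 ± 0.61 (SE) on the log2 scale, with a 95% interval from -0.55 to 1.85. SERPINE2 had 0.62 ± 0.60 and TIMP1 0.49 ± 0.51. TIMP2 had -0.27 ± 0.61 (interval -1.47 to 0.93), PLAT -0.58 ± 0.92 with undetected values taken as read, and PLAUR -0.05 ± 0.78. The intervals of PLAUR (-1.58 to 1.49) and PLAT (-2.37 to 1.21) hold a 2-fold change in either direction and those of the other 4 hold one in 1 direction, so the test does not show that any of the 6 was unaffected.

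The lines themselves differed in 3 members over both treatments. The same fit called 655 of 12965 genes (5.05%) between the lines, 1.7% higher and 3.36% lower in H1299. SERPINE2 was 9.1-fold lower in H1299 (log2 difference -3.19 ± 0.60 SE, limma adjusted p = 1.27e-05), 15.8-fold between the controls and 5.23-fold between the knockdowns. The call for SERPINE2 was kept in all 12 alternatives run, with an adjusted p up to 0.0418. PLAUR was 6.53-fold higher in H1299 on its brightest probe (log2 difference 2.71 ± 0.78, adjusted p = 0.0156), 3.48-fold between the controls and 12.3-fold between the knockdowns. The adjusted p of PLAUR over the alternatives ran from 0.0145 to 0.318, and 8 of 12 kept the call. With each of 17002 probes as its own feature, the 3 PLAUR probes gave log2 differences of 2.71 (adjusted p = 0.0256), 2.65 (0.11) and 2.61 (0.273). TIMP2 was 3.6-fold lower in H1299 on its bright probe (log2 difference -1.85 ± 0.61, adjusted p = 0.0491), 4.83-fold between the controls and 2.68-fold between the knockdowns. That call lay at the threshold and was kept in 4 of 12 alternatives, with adjusted p from 0.0415 to 0.999678. The dim TIMP2 probe gave a log2 difference of -0.22 ± 0.90. PLAU (0.77 ± 0.61, adjusted p = 0.908), PLAT (0.82 ± 0.92) and TIMP1 (0.01 ± 0.51) did not pass. TIMP1 was 1.84-fold lower in H1299 between the controls and 1.85-fold higher between the knockdowns. Between the control arrays 4 of the 6 members differed at least 2-fold (SERPINE2, PLAUR, TIMP2 and PLAT), where 44.6% of genes did, and between the knockdown arrays 4 did (SERPINE2, PLAUR, TIMP2 and PLAU), where 40% did.

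**Figure D3:**
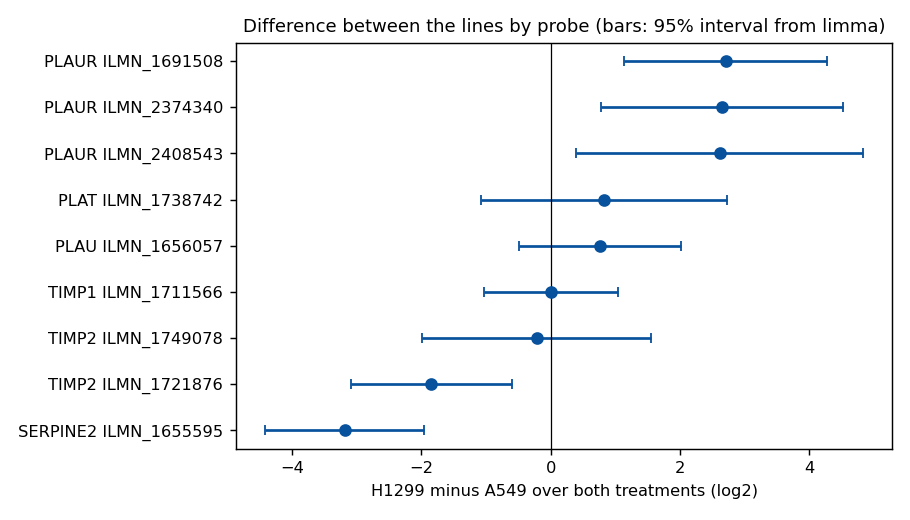
H1299 minus A549 over both treatments (x axis, log2) for each member probe tested, with points for the limma estimate and bars for its 95% interval. The 3 PLAUR probes lie together between 2.61 and 2.71, SERPINE2 lies at -3.19, and the 2 TIMP2 probes lie at -1.85 and -0.22.

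Other genes of the plasminogen system were read from a list of 20, of which 9 were tested and 8 were detected on all arrays. None passed the test of knockdown, which had little power, and 3 passed lower in H1299 than in A549 and 0 higher. The 3 were SPINT2, a Kunitz inhibitor of serine proteases (log2 difference -5.64 ± 0.83, limma adjusted p = 3.14e-09), S100A10 (-1.67 ± 0.41, adjusted p = 0.00211) and ANXA2 (-1.60 ± 0.41, adjusted p = 0.00332). S100A10 and ANXA2 form a cell surface complex that binds plasminogen. In A549, 2 of 12 detected list genes were at least 2-fold higher in the knockdown and 0 lower, with a median of 0.31, where 11.1% of all genes were higher and 8.8% lower, with a median of -0.13. In H1299, 2 of 9 were higher and 2 lower, with a median of 0.14, where 18.6% of all genes were higher and 14.8% lower, with a median of 0.28.

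SPINT2 had log2 changes of 0.32 (A549) and 1.47 (H1299), and VLDLR, a receptor that takes up urokinase complexed with its inhibitor, of 0.51 and -1.37. ENO1, a glycolytic enzyme that can bind plasminogen at the cell surface, changed by 0.73 and -0.86. ANXA2 probes also disagreed with each other, with 0.17 and 0.33 in A549 and H1299 on ILMN_2409167, 1.45 and -1.97 on ILMN_1711899, and -0.45 and 0.97 on ILMN_1755937. Unlike any PLAUR probe, ILMN_2409167 had the same sign in both lines.

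The list of metalloproteinases, other inhibitors and ADAM proteases held 32 genes, of which 19 were detected on no array, among them the collagenases MMP1, MMP8 and MMP13 and the gelatinases MMP2 and MMP9. Of the 9 tested, none passed for the knockdown, in the same test of little power, and 1 passed between the lines. MMP7, matrilysin, read 456.8 and 848.6 on the A549 arrays and was undetected in H1299 (log2 difference -4.39 ± 1.04 with undetected values taken as read, limma adjusted p = 0.00123). In A549, 4 of 12 detected list genes were at least 2-fold higher and 5 lower as read, with a median of -0.22, against 11.1%, 8.8% and -0.13 over all genes. Of these, MMP15 (higher) and MMP25 (lower) were undetected on 1 side, and their bounds of 1.55-fold and 1.59-fold do not reach 2-fold. In H1299, 3 of 7 were higher and 2 lower, with a median of 0.98, against 18.6%, 14.8% and 0.28 over all genes. RECK, a membrane-anchored inhibitor of metalloproteinases, had changes of -1.09 (A549) and 1.77 (H1299), and ADAM17, the sheddase that TIMP3 inhibits, of -1.05 and 1.84. A second RECK probe, ILMN_1688630, changed by -0.69 and 0.21. BSG, an inducer of metalloproteinase expression, changed by 1.04 and -1.44, and ADAM10, a related sheddase, by -0.22 and -1.83. A second ADAM10 probe, ILMN_2148360, changed by 0.21 in A549, so the sign there turned with the probe. In H1299 that probe was undetected in the knockdown and at least 2.17-fold lower there, against a log2 change of -0.305 on the authors' deposited values. TIMP4, the remaining tissue inhibitor, was detected only in the A549 knockdown, at a raw signal of 372.2 against 167.2 in its control. It was at least 2.72-fold higher there after normalization (log2 bound 1.44), against a log2 change of 0.33 on the authors' deposited values.

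**Figure D4:**
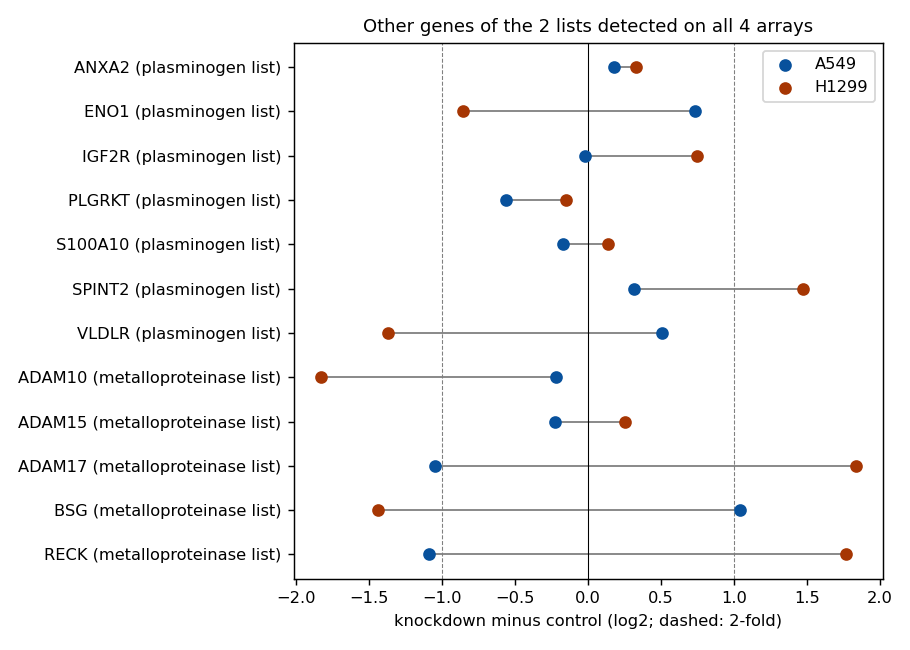
Knockdown minus control (x axis, log2) in A549 (blue) and H1299 (brown) for 12 of the 13 genes of both lists that were detected on all 4 arrays, with dashed lines at 2-fold. RECK and ADAM17 run from -1.09 and -1.05 in A549 to 1.77 and 1.84 in H1299, and BSG runs the other way, from 1.04 to -1.44.

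Likeness to PLAU and SERPINE2 was measured as the root mean square distance between the centred log2 values of the 4 arrays, over 9686 other genes detected on all arrays. The nearest to PLAU were CORO1B (0.0213), KLF4 (0.0537) and LOC441550 (0.0609). The nearest to SERPINE2 were HLA-DRB3 (0.0957), CD14 (0.121) and LOC388564 (0.125). With 4 arrays such distances describe these arrays alone. TIMP3 was below detection and was not compared.

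**Figure D5:**
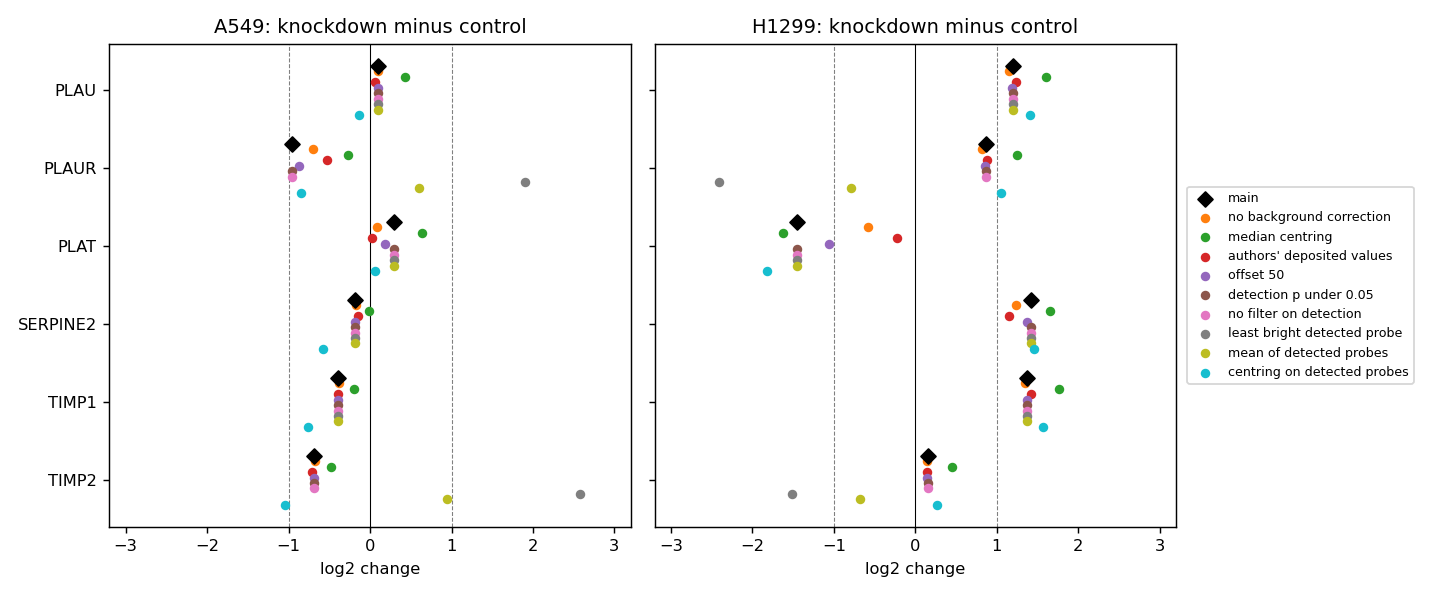
Knockdown minus control (x axis, log2) in A549 (left) and H1299 (right) for the 6 detected members, 1 point for each of 10 processing settings, black diamonds for the values reported, dashed lines at 2-fold. PLAU, SERPINE2 and TIMP1 stay above 1 in H1299 in every setting drawn, while PLAUR and TIMP2 change sign with the probe that stands for the gene.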

How the data were processed

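The 4 samples were placed in 4 groups of 1 array from their titles. Per the file headers, the first deposited table gives for each probe an average signal intensity, non-normalized, and a detection p-value. The authors' second deposited table, on a log2-like scale, came from lumi according to the submitters' processing notes, and its version, transformation and normalization are unstated in the labels and headers.

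From the intensities, neqc (limma 3.58.1, R 4.3.3) removed background by normexp, taking negative controls from the detection p-values, then applied an offset of 16, quantile normalization and log2. A probe was detected at p under 0.01, and each gene was represented by its brightest probe. Symbols were updated through RefSeq GRCh38.p14. Where 1 side was undetected, the fold is a bound against the lowest detected value of that array or the probe's own value. Such a bound holds under this background correction and normalization alone, and other processing can give a smaller change. The limma model of line plus treatment, two-sided and with Benjamini-Hochberg adjustment, took the 12965 genes that passed detection on 2 or more arrays and modelled the spread as a trend on intensity; the prior degrees of freedom were infinite, so a gene's error follows the trend. The labels name no separate cultures. The p-values rest on the disagreement of the 2 lines in their knockdown changes, pooled over genes of like intensity, and not on a spread between cultures. The number of arrays limits the precision, and intensity gives no count of molecules.

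Members, lists and tests were chosen with earlier results of these data known. Named genes were all members and TET1 with every probe, up to 6 genes of each list detected on all arrays and changed at least 2-fold in either line, the 3 genes nearest PLAU and SERPINE2, and line markers, of which some are not reported here. S100A10, ANXA2, ENO1, MMP7, MMP15, MMP25, TIMP4 and the undetected collagenases and gelatinases were named after their values were seen. Figures used matplotlib 3.10.9.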

Additional observations from a re-analysis of the deposited data

Results flagged for a closer look

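Opposite directions of the knockdown change in the 2 lines marked 8 member probes; with 1 array a group, the difference between the lines was not tested. The change in H1299 minus the change in A549, on the log2 scale and with undetected values taken as read, was 1.82 for PLAUR on ILMN_1691508, -1.71 on ILMN_2374340 and -4.30 on ILMN_2408543. It was -1.75 for PLAT, 1.60 for SERPINE2 and 1.77 for TIMP1. For TIMP2 it was 0.85 on ILMN_1721876 and -4.08 on ILMN_1749078. The values of ILMN_2408543, PLAT and ILMN_1749078 each rest on at least 1 undetected array and have no exact size. Under the normalization used, the A549 change of ILMN_2408543 is given only as at least 1.02. For ILMN_1749078 the changes are bounded at 1.09 in A549 and -0.45 in H1299, and for PLAT no fold can be given in A549. Such opposition held for 79.5% of genes and 79.7% of probes detected on all 4 arrays. PLAUR and TIMP2 show it in both senses on probes of the same gene. No group had enough samples for a check of outlying arrays.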

How the results depend on the processing

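Of 312 values under alternatives, 275 were counted as the same as the value reported. That count took in calls between the lines that fell from 3 members to 2, as on the authors' deposited values. Changes that stayed within the fit's spread were also counted. Among them were PLAT in H1299 without background correction, no longer 2-fold, and PLAU in A549 with a turned sign. Genes with 1 probe could not move with the choice of probe, so the count of 275 overstates the stability. The mean knockdown change called 0 members in every alternative run, but the test of it had little power, as given above. Members at least 2-fold higher in H1299 numbered 3 or 4. Those lower in H1299 numbered 0 without background correction and on the authors' deposited values (PLAT changed by -0.58 and -0.23), and 3 with the least bright detected probe, against 1. In A549, 2 members were at least 2-fold higher with the least bright detected probe (PLAUR 1.90 and TIMP2 2.57 as read over an undetected control, with bounds of 1.02 and 1.09) and 1 was lower (TIMP2, -1.05) with arrays centred on detected probes, a setting chosen after seeing the data. Between the lines, 1 member instead of 3 passed with median centring, with no filter on detection, with the least bright probe and with the mean of detected probes, SERPINE2 each time. The cause of these moves was not tested. Within a line, the sign of PLAUR and TIMP2 turned with the probe. With the least bright probe and the mean of detected probes PLAUR was 1.90 and 0.60 in A549 and -2.40 and -0.79 in H1299, and TIMP2 was 2.57 and 0.94 in A549 and -1.51 and -0.68 in H1299. PLAU in A549 turned to -0.14 with arrays centred on detected probes. Among values from the limma fit, signs turned where no call was made: the mean change of PLAUR was 0.058 without background correction, 0.49 with median centring, 0.17 on the deposited values and 0.11 with arrays centred on detected probes, that of TIMP2 was 0.53 with the least bright probe and 0.13 with the mean of detected probes, and the line difference of TIMP1 was -0.034 with arrays centred on detected probes. No replicate could be left out and none could be paired by number because each group holds 1 array; the fit already sets knockdown against control within each line.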
